A study of Bos taurus with 6 samples.

Results

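FABP4, ADIPOQ and LEP are genes whose RNA is made mainly by fat cells, and their reads were followed here in the longissimus dorsi, a large back muscle, of Hanwoo (Korean cattle) bulls and steers. They were chosen by Ensembl gene ID: ENSBTAG00000037526 for FABP4, ENSBTAG00000019813 for ADIPOQ and ENSBTAG00000014911 for LEP. All 3 IDs were found among the 24616 gene rows counted in every library, and all 3 passed the filter on low counts that left 12769 genes for testing. The symbols of these IDs were taken as given, since no table used here pairs Ensembl IDs with names.

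Bulls are intact males and steers are castrated males. The 3 bulls, numbered 20, 22 and 23, were each sampled at 746 days of age. Steer 439 was sampled at 996 days, Steer 456 at 950 days and Steer 458 at 930 days, so the effects of castration and of age cannot be told apart. Each animal gave 1 library of poly(A)-selected RNA, and no further treatment of either group and no age at castration is given in the sources used here. Gene counts per library ran from 17027226 in Steer 456 to 27490776 in Steer 458. The muscle markers of the labelled tissue could not be looked up without gene names.

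Fat cells lie between the bundles of fibres in a muscle, where they form the marbling for which Hanwoo beef is known. FABP4 encodes the fatty acid binding protein of adipocytes, a small carrier of fatty acids in the cytoplasm. It is also made by the endothelium of small vessels and by macrophages, so it marks fat cells less strictly than the others. ADIPOQ encodes adiponectin, a hormone that fat cells secrete and that raises fatty acid oxidation and insulin sensitivity in other tissues. LEP encodes leptin, the fat cell hormone that signals the size of the fat stores to the brain. Muscle fibres are not known as a main source of either hormone. In whole muscle, more fat cells and more of these RNAs per fat cell cannot be told apart, and a read count of these genes is therefore an indirect measure of fat in the sample.

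All 3 genes had fewer reads, relative to library size, in every bull than in any steer. The mean in steers was 7.16 times that of bulls for FABP4, 9.62 times for ADIPOQ and 16.3 times for LEP. FABP4 and LEP passed the test across all genes and ADIPOQ did not. Both calls were lost when any bull was left out, in fits where few genes passed at all. With all animals, 4.10% of tested genes passed in either direction. That share was 0.0769% without Bull 20, 0.0531% without Bull 22 and 0.0532% without Bull 23. The call of FABP4 was also lost without Steer 458 (edgeR adjusted p = 0.0554). The levels below are CPM, the reads of a gene per 1e6 gene reads of its library. They are not corrected for gene length, so they are compared between libraries and not between genes.

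FABP4, the fatty acid carrier, had nearly the same level in each bull. It was counted at 18.9 CPM in Bull 20, 20.8 CPM in Bull 22 and 17.9 CPM in Bull 23. In the steers it reached 85.1 CPM in Steer 439, 279 CPM in Steer 456 and 48.1 CPM in Steer 458. The lowest steer thus lay 2.31 times above the highest bull, and the steers spread far more widely than the bulls. The group means were 19.2 ± 1.50 CPM in bulls and 137 ± 124 CPM in steers (SD, n = 3). The log2 fold change, coded bull minus steer, was -2.87 ± 0.55 (SE) and passed the quasi-likelihood test of edgeR (adjusted p = 0.0333, after Benjamini and Hochberg). Read as a fold, FABP4 was 7.29 times higher in steers, with a 95% interval from 3.03 to 17.5. These values rested on 348 to 410 reads per bull and 1323 to 4747 reads per steer.

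ADIPOQ, the adiponectin gene, stood at 10.6 CPM in Bull 20, 23.5 CPM in Bull 22 and 10.2 CPM in Bull 23. The steers had 44.6 CPM in Steer 439, 351 CPM in Steer 456 and 30.2 CPM in Steer 458. The groups came closest in this gene, with Steer 458 only 1.29 times above Bull 22. Its mean was 14.7 ± 7.56 CPM in bulls and 142 ± 181 CPM in steers (SD, n = 3), and the SD in steers exceeded their mean. The log2 fold change of -3.27 ± 0.92 (SE) was larger in size than that of FABP4 but did not pass (edgeR adjusted p = 0.0906, unadjusted p = 0.00802). The 95% interval of the fold, from 2.19 to 42.5 times higher in steers, contains the interval of FABP4.

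LEP, the leptin gene, had few reads in bulls: 17 in Bull 20, 70 in Bull 22 and 40 in Bull 23. That corresponds to 0.782, 3.64 and 2.05 CPM, and the exact 95% Poisson interval of Bull 20 ran from 0.456 to 1.25 CPM. In steers it was counted at 28.9 CPM in Steer 439, 65.8 CPM in Steer 456 and 10.8 CPM in Steer 458. The lowest steer was 2.97 times above the highest bull. Its mean was 2.16 ± 1.43 CPM in bulls and 35.2 ± 28.0 CPM in steers (SD, n = 3). LEP changed by -4.06 ± 0.71 on the log2 scale (SE; edgeR adjusted p = 0.0264), bull minus steer, or 16.7 times higher in steers with a 95% interval from 5.44 to 51.5. The Poisson intervals cover counting error only and say nothing of the spread between animals.

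**Figure D1:**
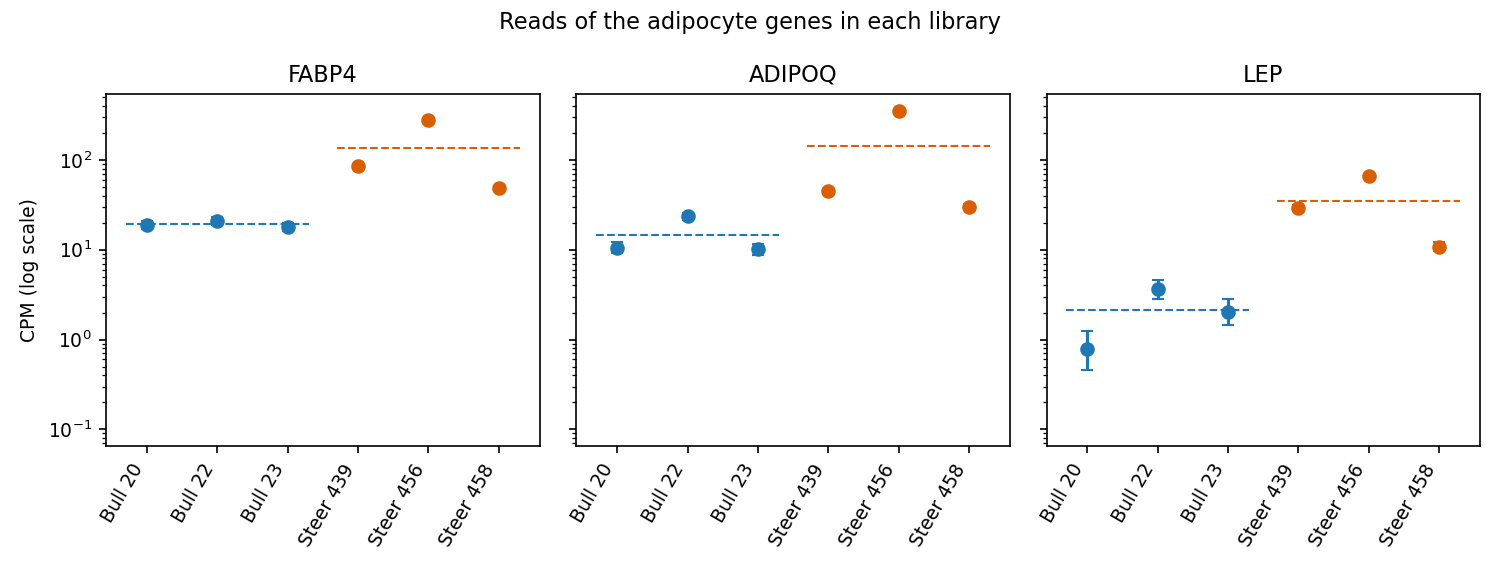
CPM of FABP4, ADIPOQ and LEP in each library, on a log axis. Points are single animals (blue bulls, orange steers), bars are exact 95% Poisson intervals of the count, and dashed lines are the group means. In each panel the 3 steers lie above the 3 bulls, and Steer 456 is the highest.

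Called genes were rare in the whole comparison. Of 12769 tested genes, 4.10% passed in either direction (edgeR adjusted p under 0.05) and 2.06% passed as lower in bulls, against 2 of these 3 genes. A complete separation with all bulls below all steers was found in 14.0% of tested genes, against 3 of 3 here. This share, like those of the patterns in the steers below, was taken on CPM after TMM scaling of library size. The 3 genes were chosen with earlier results of these data known, so these shares are description only. Ordered by log2 fold change from the lowest in bulls, LEP was number 17, ADIPOQ number 38 and FABP4 number 69 of the tested genes. The median log2 fold change was -3.27 over the 3 genes and -0.01 over all tested genes. Ordered by p-value they stood in another sequence, with LEP at 185, FABP4 at 291 and ADIPOQ at 1130. Between ADIPOQ and FABP4, ADIPOQ had the larger fitted change and FABP4 the smaller standard error.

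**Figure D2:**
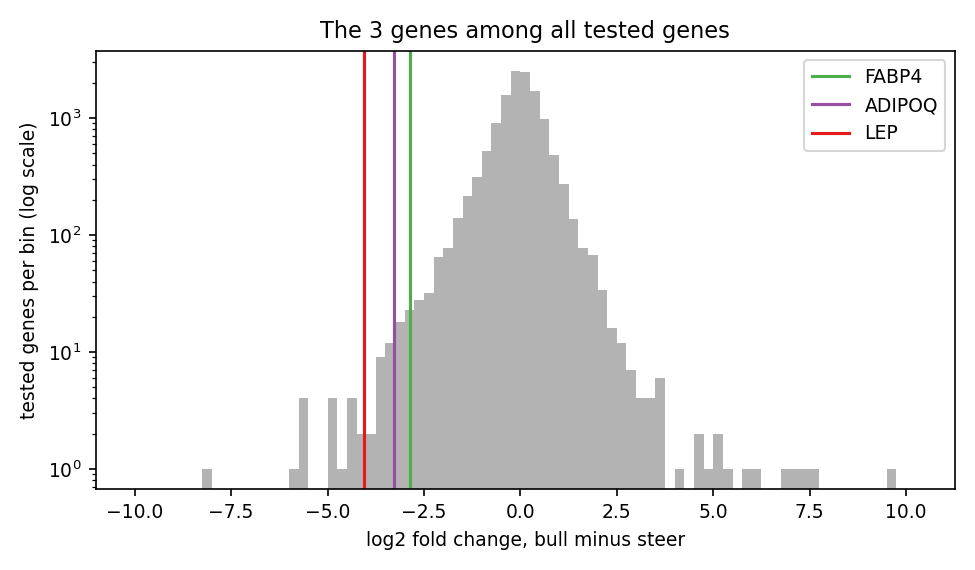
Histogram of the log2 fold change, bull minus steer, of the 12769 tested genes, with a log count axis. Vertical lines mark LEP at -4.06, ADIPOQ at -3.27 and FABP4 at -2.87, all in the far left tail.

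The steers differed among themselves in the same order for each gene, Steer 456 above Steer 439 above Steer 458. This order together with complete separation from the bulls was found in 2.82% of tested genes. The oldest animal, Steer 439 at 996 days, was not the highest, while the youngest steer, Steer 458 at 930 days, was the lowest steer. A link of the levels to age among the steers was not tested. Steer 456 was at least 2-fold above each of the other 5 libraries in all 3 genes, as in 5.15% of tested genes. The step from Steer 439 to Steer 456 was unequal. It was 7.86-fold for ADIPOQ (95% counting interval 7.38 to 8.39), 3.28-fold for FABP4 (3.11 to 3.45) and 2.28-fold for LEP (2.07 to 2.50). The order was another one between Steer 439 and Steer 458, where LEP was 2.68-fold higher (2.33 to 3.07), FABP4 1.77-fold (1.65 to 1.90) and ADIPOQ 1.48-fold (1.35 to 1.62) in Steer 439. Within each of these steps the counting intervals of the 3 genes did not overlap. These intervals compare single libraries and cover counting error only, not the spread between animals or between library preparations.

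Among the bulls, FABP4 varied little while both hormone genes were highest in Bull 22. FABP4 in Bull 22 was 1.10-fold that of Bull 20, with a counting interval of 0.959 to 1.27, and 1.17-fold that of Bull 23 (1.01 to 1.35). ADIPOQ was 2.22-fold higher in Bull 22 than in Bull 20 (1.89 to 2.61) and 2.31-fold higher than in Bull 23 (1.95 to 2.74). LEP was 4.65-fold higher in Bull 22 than in Bull 20 (2.71 to 8.44) and 1.78-fold higher than in Bull 23 (1.19 to 2.69). Over all tested genes, the SD of log2 CPM among bulls had a median of 0.18. FABP4 had 0.15, with 41.5% of genes below it, ADIPOQ 0.69 with 95.7% below, and LEP 1.03 with 98.7% below. Among steers the median was 0.39, and the SD was 1.18 for FABP4, 1.80 for ADIPOQ and 1.19 for LEP. In steers each of the 3 genes was thus among the most variable 5% of tested genes, with 95.2% of genes below FABP4, 99.2% below ADIPOQ and 95.2% below LEP. In bulls the same held for ADIPOQ and LEP, but not for FABP4.

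Without Steer 456 the steers were 3.76 times higher in FABP4, 2.76 times in ADIPOQ and 9.98 times in LEP, each over 1.5 times less than with all animals. FABP4 and LEP passed in that fit (edgeR adjusted p = 0.00412 and 0.0247) and ADIPOQ did not (edgeR adjusted p = 0.0629), in a fit where 3.59% of tested genes passed as lower in bulls. Without Bull 22 the fold of LEP was 26.2, since that bull has the most LEP reads of its group. Leaving out any one bull ended the calls of FABP4 and LEP (edgeR adjusted p from 0.140 to 0.179 and from 0.0916 to 0.155). In those fits 0.0461% of all tested genes passed as lower in bulls without Bull 20, 0.0303% without Bull 22 and 0.0304% without Bull 23, and the unadjusted p stayed at or below 0.00519 for FABP4 and 0.00289 for LEP. Without Steer 458 FABP4 also missed the threshold (edgeR adjusted p = 0.0554), with 0.345% of genes passing as lower in bulls.

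With no filter on low counts, FABP4 and LEP missed the threshold (edgeR adjusted p = 0.0763 and 0.0785) while 1.36% of the tested genes passed as lower in bulls, and with library size in place of TMM scaling FABP4 missed it (edgeR adjusted p = 0.0535; 0.971% of genes). DESeq2 gave ADIPOQ no p because its counts exceeded the cut-off on Cook's distance, a measure of how far 1 library pulls a fit. Without that cut-off ADIPOQ passed (DESeq2 adjusted p = 0.0212), in a fit where 6.70% of genes passed as lower in bulls.

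**Figure D3:**
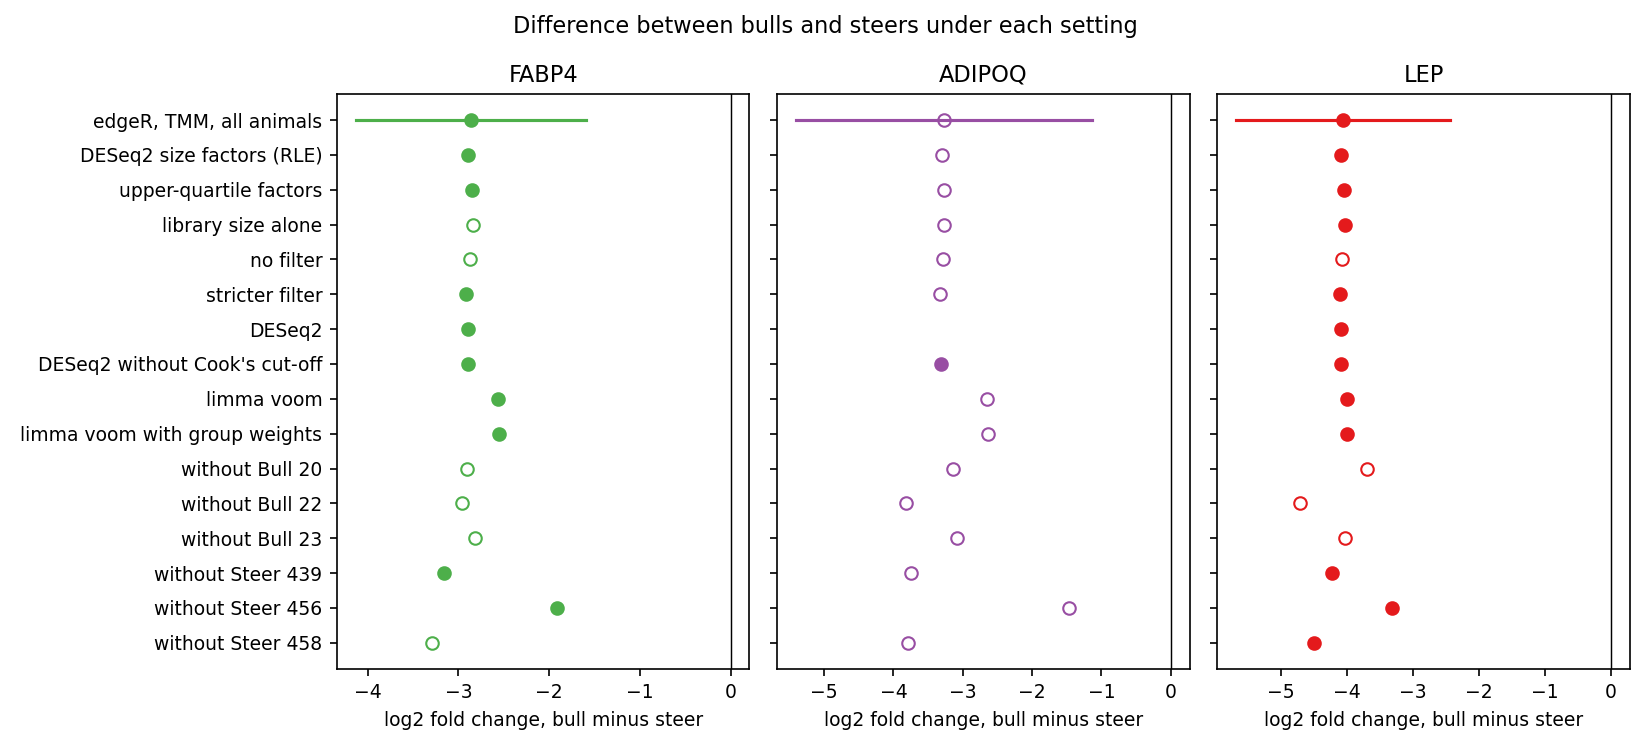
Log2 fold change, bull minus steer, of each gene with all animals and under each other scaling, filter, tool or left-out animal. Filled points have an adjusted p under 0.05, open points do not, and the line in the top row is the 95% interval. All points lie left of 0, and the point nearest to 0 is that without Steer 456 in each panel.

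The genes were next set against each other within each library, where scaling and gene length cancel out of any difference between libraries. The ratio of ADIPOQ to FABP4 reads was 0.561 in Bull 20, 1.13 in Bull 22 and 0.569 in Bull 23. Among the castrated animals, Steer 439 had 0.524, Steer 456 had 1.26 and Steer 458 had 0.627. One bull and one steer had a ratio near 1 and the other 4 animals had nearly the same lower one, so the groups overlapped. The mean log2 ratio was -0.49 ± 0.57 in bulls and -0.43 ± 0.67 in steers (SD, n = 3). The 2-sided exact permutation test gave p = 0.7, adjusted 0.7 over 3 ratios. With 3 animals against 3 it cannot give a p below 0.1, so it does not show that the groups are alike.

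The ratio of LEP to FABP4 reads did not overlap between the groups. How often the ratios of other pairs of genes do so was not tested. The LEP to FABP4 ratio was 0.0415 in Bull 20, 0.175 in Bull 22 and 0.115 in Bull 23, against 0.340 in Steer 439, 0.236 in Steer 456 and 0.224 in Steer 458. Every steer lay above every bull, and the mean log2 ratio was -3.39 ± 1.05 in bulls and -1.93 ± 0.33 in steers (SD, n = 3), with p = 0.1 and an adjusted value of 0.3 in the 2-sided exact permutation test. A p of 0.1 is the smallest that this permutation test can give for 3 animals against 3. The lowest ratio, in Bull 20, rested on 17 LEP reads. Without Bull 20 the log2 difference, bull minus steer, was -0.88, against -1.46 with all animals. The LEP to ADIPOQ ratio overlapped between the groups: 0.0739, 0.155 and 0.202 in Bulls 20, 22 and 23, and 0.649, 0.188 and 0.358 in Steers 439, 456 and 458. Its mean log2 value was -2.90 ± 0.74 in bulls and -1.51 ± 0.89 in steers (SD, n = 3), with p = 0.2 and an adjusted value of 0.3 in the same exact test. Steer 456, with the most ADIPOQ reads, had the lowest LEP to ADIPOQ ratio of the steers.

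**Figure D4:**
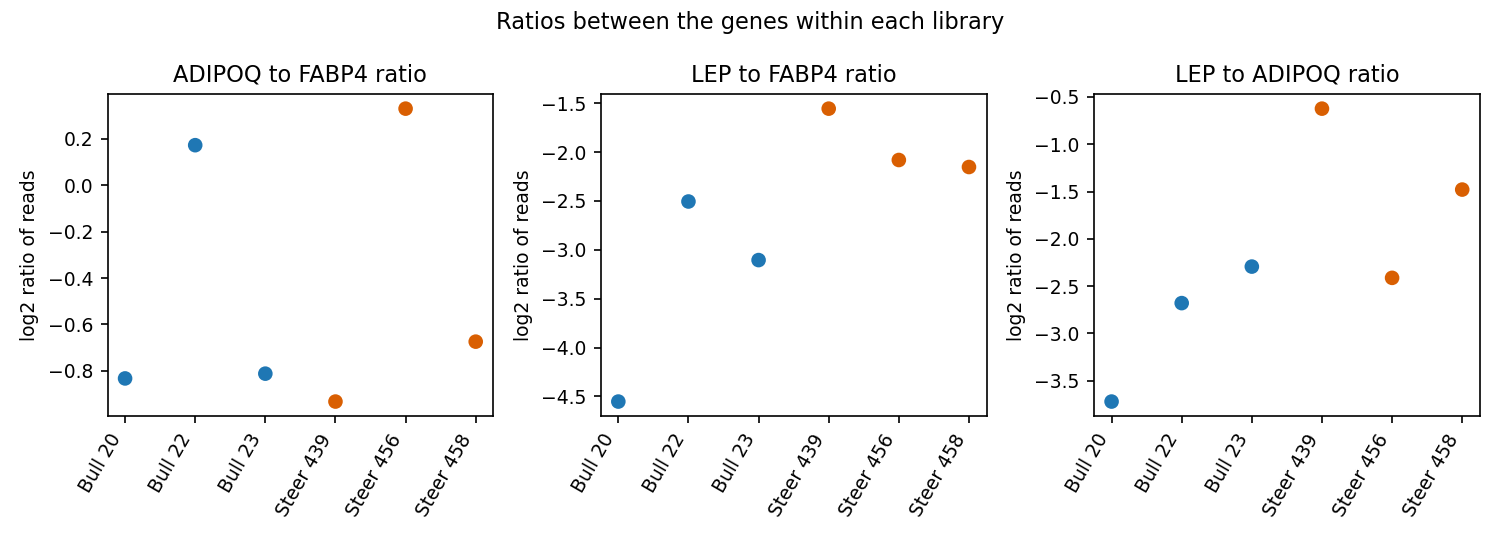
Log2 ratio of reads between each pair of the 3 genes in each library (blue bulls, orange steers). Only in the LEP to FABP4 panel do all steers lie above all bulls.

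As a single description of each animal, the log2 levels of the 3 genes were averaged and set against the mean of the bulls. The bulls lay at 0.730, 1.55 and 0.882 times that mean in Bulls 20, 22 and 23. The steers lay at 6.28 times in Steer 439, 23.1 times in Steer 456 and 3.66 times in Steer 458. By these 3 genes the animals therefore ran from Bull 20 and Bull 23 through Bull 22, Steer 458 and Steer 439 to Steer 456. The distance from Steer 458 to Steer 456 was larger than that from Bull 22 to Steer 458.

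By position among all 24616 gene rows, ordered by reads, FABP4 stood between 4427 and 5022 in bulls and at 377 in Steer 456. ADIPOQ stood between 4023 and 6738 in bulls and at 306 in Steer 456, and LEP between 9321 and 11869 in bulls and at 1732 in Steer 456. In Steer 458 the positions were 2157 for FABP4, 3097 for ADIPOQ and 5900 for LEP. These positions describe reads per gene, which also depend on gene length.

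The genes with the most similar profile were sought among 9034 tested genes with a mean of at least 5 CPM in the higher group. Likeness was the root mean square difference between the 6 log2 levels, each taken as its deviation from the mean of the gene. The nearest to FABP4 was ENSBTAG00000000283, at a distance of 0.16 log2 units. It had 4.28 ± 0.194 CPM in bulls and 27.4 ± 25.8 CPM in steers (SD, n = 3), and differed by -2.70 ± 0.57 on the log2 scale (SE; edgeR adjusted p = 0.0417). The nearest to ADIPOQ was ENSBTAG00000019379, at 0.31, with 11.1 ± 4.37 CPM in bulls and 102 ± 121 CPM in steers (SD, n = 3). It differed by -3.22 ± 0.83 on the log2 scale (SE) and did not pass (edgeR adjusted p = 0.0737). Both were picked for their likeness, so their differences between the groups describe them and add nothing to the test of the 3 genes.

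None of the 3 genes was the nearest of another. FABP4 was number 6 among the genes nearest to ADIPOQ, while ADIPOQ was number 33 from FABP4. LEP was number 392 from FABP4 and number 127 from ADIPOQ. From LEP, FABP4 was number 15 and ADIPOQ number 16, at distances of 0.93 and 0.94, against 0.51 between FABP4 and ADIPOQ. The mean of each group was then removed first, so that only differences among animals of the same group counted. By its construction this step cannot raise a distance. The distances were then 0.51 between FABP4 and ADIPOQ, 0.61 between FABP4 and LEP and 0.65 between ADIPOQ and LEP. More of the other genes then lay closer, so that FABP4 was number 43 and LEP number 211 from ADIPOQ, and ADIPOQ was number 1118 and LEP number 2106 from FABP4. From LEP, FABP4 was then number 177 and ADIPOQ number 305.

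**Figure D5:**
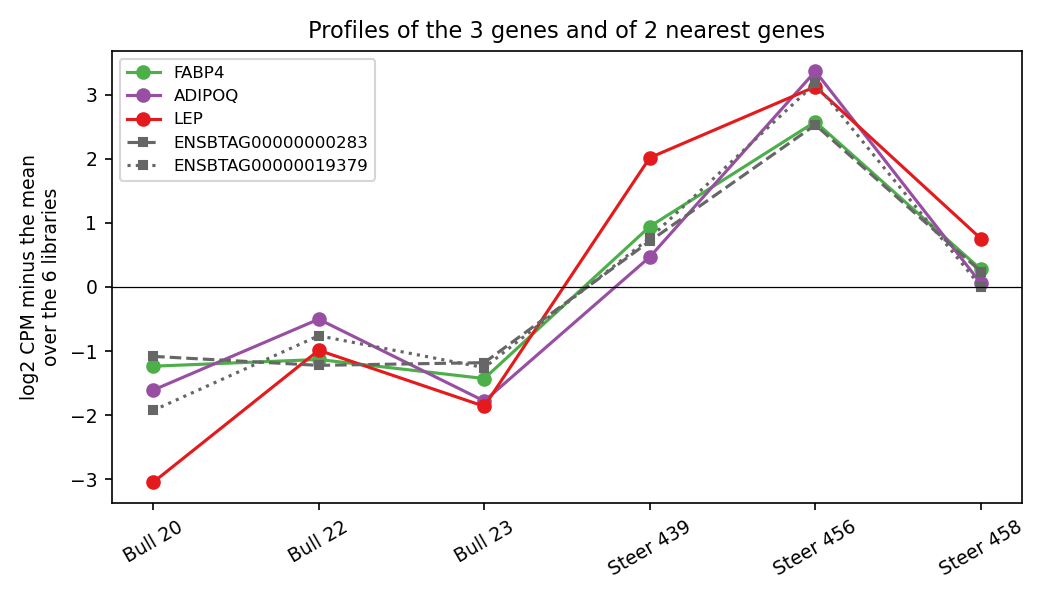
Log2 CPM minus its mean over the 6 libraries, for FABP4, ADIPOQ, LEP and the unnamed genes nearest to FABP4 (dashed) and ADIPOQ (dotted). All 5 lines peak in Steer 456, and LEP has the lowest point, in Bull 20.

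The neighbours of these genes in the genome are given as background to the counting of their reads. In the RefSeq gene order of the assembly ARS-UCD2.0, which is not the build of the counts, FABP4 lies in a row of related genes with FABP5, PMP2 and FABP9 on one side and FABP12 on the other. ADIPOQ lies between ST6GAL1 and RFC4, apart from an uncharacterised locus beside it, and LEP lies between LRRC4 and RBM28. Reads that align to more than one place were counted for no gene, and a part of the reads of a gene with near-identical copies is then lost. Whether FABP4 has near-identical copies, and whether it lost reads in this way, was not tested.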

How the data were processed

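Per the labels' protocols, RNA was selected with oligo-dT beads and made into TruSeq libraries for an Illumina NextSeq. The authors deposited raw read counts by Ensembl gene ID, 1 file per animal, with no scaling. FastQC, TopHat2 2.0.2, HTSeq 0.5.3p3 and build UMD3.1 are named in the submitters' processing notes. Strand setting and annotation release are not stated there, and overlapping and antisense genes cannot be told apart. The 5 summary rows of each file were left out of library sizes.

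Differences were tested with edgeR 4.0.16 in R 4.3.3 (quasi-likelihood, TMM, filterByExpr, robust), fitted on all genes and adjusted over 12769. The standard error is the log2 fold change divided by the root of F. Log2 levels used a prior count of 2, and ratios a pseudocount of 0.5. DESeq2 1.42.0 and limma 3.58.1 were alternatives. The named genes were the 3 studied and the nearest profile of each, of which the closest 2 are printed. Genes and rules were chosen with earlier results of these data known. The lists of other adipocyte, vessel, macrophage and muscle genes could not be used, because 0 of the 37063 rows of the name table hold an Ensembl ID. No sequence of the genes was used here. Counts of single libraries carry Poisson intervals, and between libraries binomial ones. Both cover counting error only. A count of 0 would allow 3 counts, at most 0.176 CPM.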

Additional observations from a re-analysis of the deposited data

Results flagged for a closer look

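Reads aligned to more than 1 place lie outside every comparison above. Their share of all counts of a library, gene rows and summary rows together, had a median of 26.8% over the 6 libraries. It ran from 16.9% in Steer 439 to 28.2% in Bull 22. Their part in the counts of FABP4, ADIPOQ and LEP was not tested.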

How the results depend on the processing

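All 3 genes were lower in bulls under every setting run. FABP4 missed the threshold with library size alone (log2 fold change -2.84, edgeR adjusted p = 0.0535) and without a filter (-2.88, edgeR adjusted p = 0.0763), where LEP missed it too (-4.07, edgeR adjusted p = 0.0785). The cause was not tested. FABP4 passed in 7 of 9 other settings with all animals and LEP in 8 of 9. Of all tested genes, the share passing as lower in bulls ran from 0.971% with library size alone to 6.70% in DESeq2. ADIPOQ passed in 1 of 8, DESeq2 without its cut-off on Cook's distance (-3.31, DESeq2 adjusted p = 0.0212), a setting added after DESeq2 with the cut-off gave ADIPOQ no p. Its adjusted p in the other 7 ran up to 0.253. With each animal left out, the log2 fold change ran from -3.29 to -1.91 for FABP4 (passing in 2 of 6). It ran from -3.82 to -1.46 for ADIPOQ (0 of 6) and from -4.71 to -3.32 for LEP (3 of 6). In these fits the share of all tested genes passing as lower in bulls ran from 0.0303% without Bull 22 to 4.61% without Steer 439. The log2 difference in the ADIPOQ to FABP4 ratio, -0.07 with all animals, ran from -0.40 to 0.31 and changed sign without Bull 20, Bull 23 or Steer 456. The LEP to FABP4 difference ran from -1.90 to -0.88 and the LEP to ADIPOQ difference from -1.85 to -0.95. No paired analysis was possible because bulls and steers share no animal number. By counting error alone, LEP in bulls, with 17 to 70 reads per library, is the least precise level of the 3 genes. The spread between animals was largest for ADIPOQ in steers, with a coefficient of variation of 128%, against 66.4% for LEP in bulls.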
